A study of Mus musculus with 6 samples.

Results

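The imprinted genes described here are 36 mouse genes, matched by symbol to the rows of a table of 26586 genes, whose transcription is known to come mainly from the allele of 1 parent. The list names H19 and Igf2, the Cdkn1c and Dlk1-Meg3 regions and the other well-known imprinted clusters. It was drawn up by name, with earlier results of these data known. By textbook knowledge 22 of the 36 are expressed from the paternal allele, 13 from the maternal allele, and Gnas from either, by tissue and transcript. RNA-seq read counts were available for 6 libraries of cells sorted from the uterus of Axin2rtTA; tetOH2BJGFP mice, in which doxycycline switches on a nuclear green fluorescent protein in cells that use the Axin2 promoter. All mice had lost their ovaries when 4 weeks old, received doxycycline after a 2-week rest, and gave their uteri 4 days after that, when listed as 6 weeks old. Cells isolated as endometrial epithelium were dissociated and sorted into GFP-positive cells, labelled Axin2+, and GFP-negative cells, labelled Axin2-, with 3 libraries of each. The study compared those fractions, and no animal without doxycycline, without ovariectomy or without the transgenes was part of these 6 libraries.

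Genomic imprinting is set by DNA methylation laid down at imprinting control regions in the egg or the sperm and kept through cell division. A control region governs a cluster of genes, often through a long noncoding RNA or through binding of the insulator protein CTCF, so that neighbours can be expressed from opposite parental alleles. Many paternally expressed genes promote growth and many maternally expressed ones restrain it, and imprinting of several is limited to some tissues or stages. A count per gene adds the reads of both alleles, so the values below are levels of RNA and do not show which allele was read.

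The 6 libraries held between 49714402 and 59597315 counted reads. Levels are given as CPM, counts scaled to the size of the library, with TMM factors. Fold changes are log2 ratios of the libraries labelled Axin2+ over those labelled Axin2-, with a standard error (SE) and a p-value adjusted by Benjamini-Hochberg over 16896 genes with edgeR's quasi-likelihood test, called at 0.05. Axin2, the gene whose promoter drives the reporter, was measured in mice 1, 2 and 3 at 369, 357 and 356 CPM in the Axin2- libraries and at 165, 243 and 299 CPM in the Axin2+ libraries. The transcript was thus lower in each library labelled Axin2+, against the direction of the label, with a log2 fold change of -0.61 ± 0.21 (SE) that did not pass the test (adjusted p = 0.0710, edgeR). Libraries are therefore named by their labels throughout.

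Cell type markers differed between the fractions as well, and those of the labelled cell type, epithelium, were far lower in the libraries labelled Axin2-. The summed level of 18 epithelial markers was 251 to 364 CPM in the libraries labelled Axin2- and 2812 to 4015 CPM in those labelled Axin2+, and 18 of 18 rose. Krt8, a keratin of simple epithelia, went from 59.61 ± 14.0 to 596 ± 265 CPM (SD, n = 3 each). Stromal fibroblast markers summed to 11292 to 24404 CPM against 3494 to 4844 CPM, with 11 of 14 lower by the test, and smooth muscle and pericyte markers to 2892 to 7296 CPM against 334 to 608 CPM, with 13 of 14 lower. Endothelial markers summed to 266 to 319 CPM against 323 to 560 CPM (7 of 12 rose), immune markers to 69.4 to 378 CPM against 697 to 3826 CPM (8 of 12 rose and 3 fell), and mesothelial markers to 175 to 226 CPM against 181 to 488 CPM (4 of 7 rose and 1 fell). The mesothelial sum adds Wt1, which fell from 161 ± 22.9 to 75.1 ± 15.0 CPM, to genes that rose. Among those, Upk3b went from 11.8 ± 1.43 to 94.0 ± 66.1 CPM (SD, n = 3 each). In the endothelial sum, Cdh5 was at 140 ± 36.5 and 78.9 ± 20.8 CPM and did not pass. Vwf in the same sum rose from 12.3 ± 4.78 to 77.5 ± 54.3 CPM. No gene of these lists was at 0 in a whole fraction. Fewer cells of a type and less RNA per cell cannot be told apart in such bulk libraries, and the part of these marker differences in any result below was not tested.

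Most of the imprinted genes with enough reads were lower in the libraries labelled Axin2+. Of the 36 genes, 33 passed the filter on low counts and were tested, 20 fell, 2 rose, 11 did not pass, and 3 (Usp29, Snrpn and Magel2) had too few reads to test. The 20 that fell were 60.6% of the tested imprinted genes, where 12.8% of all genes tested fell. The 2 that rose, Asb4 and Ppp1r9a, were 6.06%, where 14.5% of all genes tested rose. The median log2 fold change was -1.24 over the tested imprinted genes and -0.01 over all genes tested. Rtl1 and Mir136 passed the filter only through the libraries labelled Axin2-, so their place among the tested genes rests on the fraction in which they were high, while no gene passed through the other fraction alone. All 3 libraries labelled Axin2+ were below all 3 labelled Axin2- in 21 of the tested imprinted genes, against 23.2% of all genes tested, and above them in 4, against 23.9%.

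The number called depended on the number of mice. Leaving out single libraries gave 14 to 19 lower imprinted genes, and leaving out both libraries of a mouse gave 10 without mouse 1, 12 without mouse 2 and 14 without mouse 3, while over all genes the lower calls went from 2171 to 1117, 693 and 1053. Over all genes they were also 1272 without the Axin2- library of mouse 1, 1308 without that of mouse 3 and 1053 without the Axin2+ library of mouse 2. Without both libraries of mouse 1, the lost calls were those of H19, Kcnq1ot1, Igf2r, Airn, Begain, Rtl1, Rian, Ndn, Gnas and Mest. Without mouse 2 they were those of Igf2, Kcnq1ot1, Begain, Rtl1, Ndn, Gnas, Nap1l5, Impact and, of those that rose, Ppp1r9a. Without mouse 3 they were those of Kcnq1ot1, Igf2r, Airn, Begain, Rtl1 and Gnas. With the mouse as a block 17 imprinted genes fell. Scaling by library size alone moved the median log2 fold change of all genes to 0.16 and the lower share of all calls from 47.0% to 32.6%, and 18 of the imprinted genes still fell. Of the 22 genes called, 8 (Cdkn1c, Meg3, Mir136, Dio3, Peg3, Sgce, Asb4 and Plagl1) kept their call in each alternative analysis that tested them, which was 16 for each but Mir136, tested in 15. Mir136 passed the filter only through the libraries labelled Axin2-, so its kept call is no separate support.

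**Figure D1:**
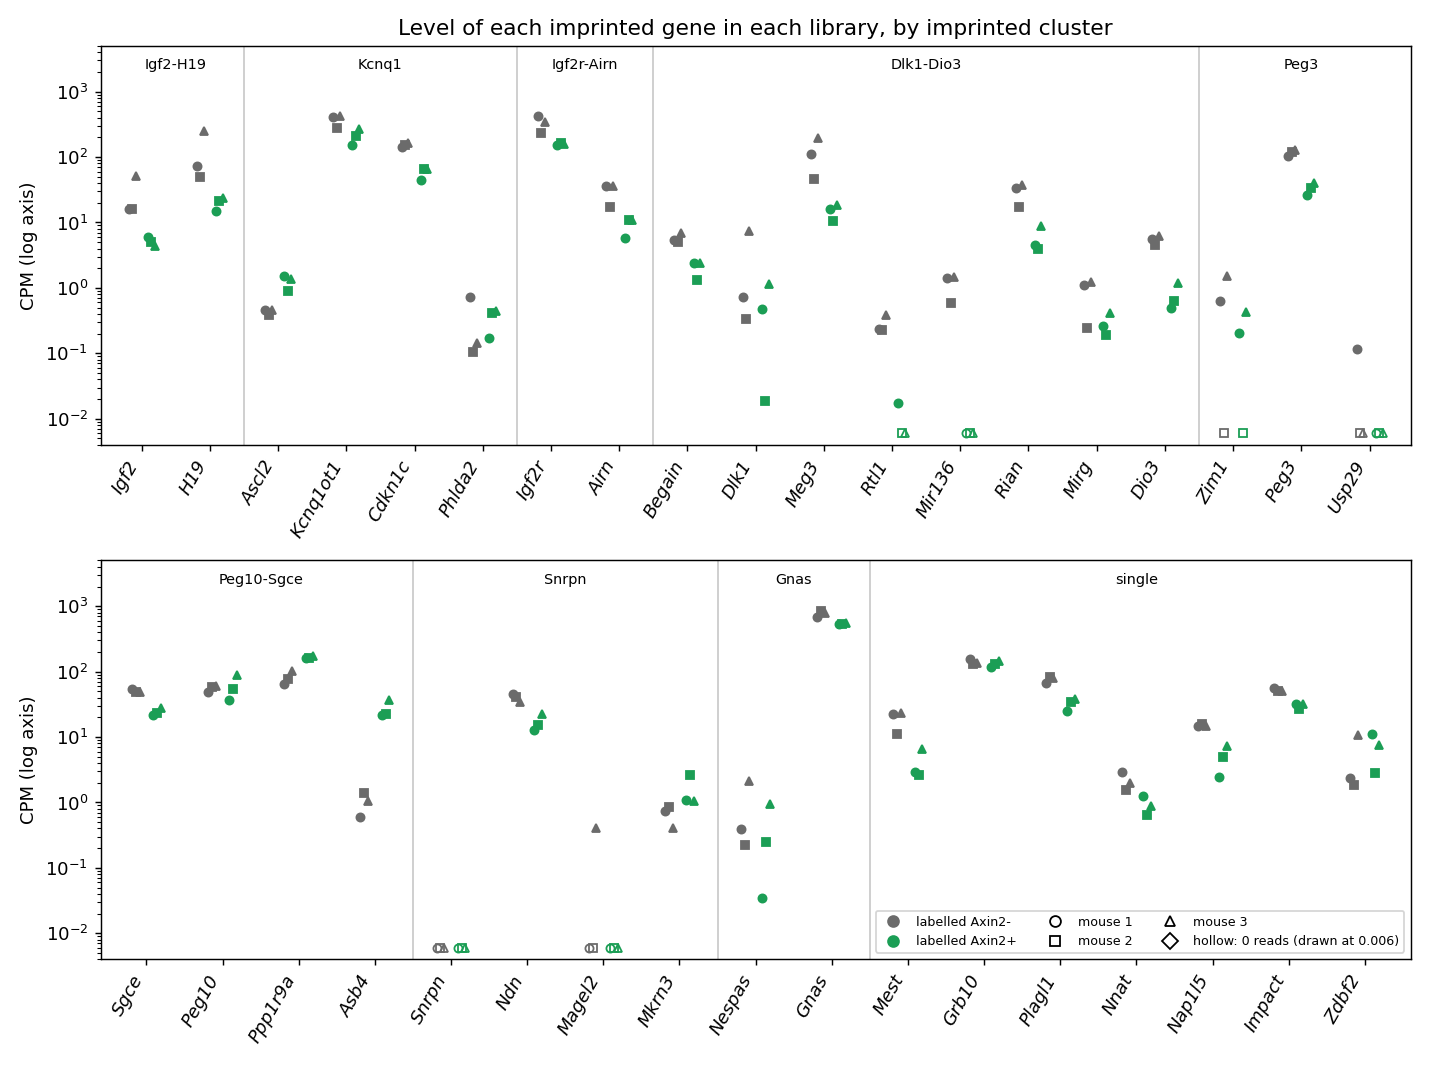
Level of each of the 36 imprinted genes in each of the 6 libraries, in CPM on a log axis, grouped by imprinted cluster, with grey for libraries labelled Axin2-, green for those labelled Axin2+, a symbol per mouse and hollow symbols at 0.006 for libraries with no read. Most grey points sit above the green ones, with Asb4 (26.9 CPM in the libraries labelled Axin2+ against 1.03 CPM) the clearest case of the opposite.

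The share of all counts taken by the 36 genes was 0.253%, 0.222% and 0.267% in the libraries labelled Axin2- and 0.147%, 0.162% and 0.188% in those labelled Axin2+, without overlap. Per length of exon (RPKM, which is CPM per kilobase, with gene models of GENCODE M21), the highest levels in the libraries labelled Axin2- were those of Cdkn1c (74.8 RPKM), Gnas (68.9 RPKM), H19 (50.4 RPKM) and Igf2r (35.8 RPKM). In those labelled Axin2+ the order was Gnas (47.8 RPKM), Cdkn1c (28.5 RPKM), Igf2r (16.9 RPKM), Grb10 (14.6 RPKM) and Ppp1r9a (11.4 RPKM). H19, the third by length-scaled level in the libraries labelled Axin2-, stood at 8.03 RPKM in those labelled Axin2+.

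Both genes of the Igf2-H19 cluster, on chromosome 7, fell (100%, against 12.8% of all genes tested). Igf2 (chr7:142650766-142666816, minus strand, mm10/GRCm38), the paternally expressed growth factor of the insulin family, was in mice 1, 2 and 3 at 16.2, 16.3 and 51.05 CPM in the libraries labelled Axin2- and at 6.11, 5.04 and 4.37 CPM in those labelled Axin2+. The groups did not overlap, and the Axin2- library of mouse 3 was far above the other libraries of its fraction. Mean levels of 27.9 ± 20.1 and 5.17 ± 0.874 CPM (SD, n = 3 each) gave a log2 fold change of -2.43 ± 0.49 (SE, adjusted p = 0.0115, edgeR), which was -1.63 without the Axin2- library of mouse 3 (adjusted p = 0.0087, edgeR). H19 (chr7:142575529-142578143, minus strand) is a maternally expressed noncoding RNA that shares enhancers with Igf2. It was measured at 74.0, 50.1 and 248 CPM and at 14.9, 21.1 and 23.3 CPM in the same order of mice. The same Axin2- library of mouse 3 was the highest, and the groups again did not overlap. The log2 fold change was -2.65 ± 0.60 (SE, adjusted p = 0.0175, edgeR), was -1.64 without that library, and missed the threshold without the Axin2+ library of mouse 2 (log2 fold change -2.70, adjusted p = 0.0608, edgeR). Although the growth factor and the noncoding RNA are read from opposite alleles, both were lower in the libraries labelled Axin2+ in 3 of 3 mice.

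Genes that act on the IGF2 protein or its signal were measured in the same libraries. Igf2r (chr17:12682406-12769664, minus strand), the maternally expressed receptor that takes IGF2 up for breakdown, was at 420, 236 and 344 CPM in the libraries labelled Axin2- and at 152, 163 and 157 CPM in those labelled Axin2+. The spread was wide in the first fraction and narrow in the second, with no overlap, and the log2 fold change was -1.08 ± 0.21 (SE, adjusted p = 0.00953, edgeR). Airn (chr17:12741311-12860136, plus strand) is the paternal noncoding RNA that runs antisense through the start of Igf2r and silences it on that allele. It fell too, from 36.3, 17.1 and 35.7 CPM to 5.76, 10.99 and 11.1 CPM, without overlap. Its log2 fold change of -1.68 ± 0.37 (SE, adjusted p = 0.0166, edgeR) missed the threshold without the Axin2- library of mouse 1 (-1.48, adjusted p = 0.0547) or of mouse 3 (-1.51, adjusted p = 0.0607). Within the Axin2- fraction, both genes were lowest in the library of mouse 2.

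Grb10, an adaptor that dampens signalling of the insulin and IGF1 receptors, did not pass the test. It was at 155, 133 and 135 CPM in the libraries labelled Axin2- and at 119.7, 132 and 145 CPM in those labelled Axin2+. The groups overlapped, and the log2 fold change was -0.09 ± 0.12 (SE, adjusted p = 0.630, edgeR), with its sign turned to 0.08 by scaling on library size alone and to 0.01 without the Axin2- library of mouse 1.

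A list of 27 other genes of the IGF pathway, of which 25 were tested, held 3 that rose (12%, against 14.5% of all genes tested) and 7 that fell (28%, against 12.8%), with a median log2 fold change of -0.53. Irs2, an adaptor of the insulin and IGF1 receptors, fell from 204 ± 22.5 to 64.2 ± 1.89 CPM (SD, n = 3 each), a log2 fold change of -1.67 ± 0.12 (SE, adjusted p = 0.000303, edgeR). Igfbp3, a secreted protein that binds IGFs, fell from 595 ± 256 to 28.3 ± 2.10 CPM (-4.39 ± 0.32 on the log2 scale, adjusted p = 0.000325, edgeR). Grb7, an adaptor of the same family as Grb10, rose from 5.74 ± 2.44 to 78.0 ± 12.0 CPM, and Igf2bp2, an RNA-binding protein named for its binding of Igf2 mRNA, from 11.8 ± 4.81 to 60.4 ± 8.47 CPM. Stc1, which encodes stanniocalcin 1, rose from 14.0 ± 6.59 to 77.4 ± 37.6 CPM. The receptor Igf1r was at 450 ± 154 and 398 ± 69.8 CPM and did not pass the test (log2 fold change -0.18, adjusted p = 0.652, edgeR). The 7 lower calls became 3 with library-size scaling, 3 without the Axin2- library of mouse 1, 4 without the Axin2+ library of mouse 1 and 3 without the Axin2+ library of mouse 2.

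In the Kcnq1 cluster, also on chromosome 7, 2 of 4 genes fell (50%, against 12.8% of all genes tested) and the other 2 did not pass. Cdkn1c (chr7:143458339-143461050, minus strand) encodes p57, a maternally expressed inhibitor of cyclin-dependent kinases that holds cells out of the cycle. Its levels were 143, 153 and 162 CPM in the libraries labelled Axin2- and 44.6, 64.8 and 64.8 CPM in those labelled Axin2+. The replicates were tight and the groups far apart, with means of 152 ± 9.72 and 58.1 ± 11.6 CPM (SD, n = 3 each). The log2 fold change was -1.39 ± 0.17 (SE, adjusted p = 0.00152, edgeR). Kcnq1ot1 (chr7:143203458-143296549, minus strand), the paternal noncoding RNA that silences the cluster in cis, was at 414, 281 and 421 CPM and at 151, 211 and 269 CPM. The groups came close, with 281 CPM in the Axin2- library and 269 CPM in the Axin2+ library nearest each other. Its log2 fold change of -0.82 ± 0.25 (SE, adjusted p = 0.0463, edgeR) was barely past the threshold. A block on the mouse (adjusted p = 0.0573) took it out, as did library-size scaling (adjusted p = 0.0940). It also missed the threshold without the Axin2- library of mouse 1 (adjusted p = 0.134) or mouse 3 (0.139) and without the Axin2+ library of mouse 1 (0.0878) or mouse 2 (0.127). In the main test Kcnq1ot1 and Cdkn1c were thus both lower in the libraries labelled Axin2+. The counts add both alleles, and whether these levels are linked was not tested.

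Ascl2, a transcription factor of the trophoblast and of intestinal stem cells, lay between 0.384 and 0.467 CPM in the libraries labelled Axin2- and between 0.887 and 1.52 CPM in those labelled Axin2+. The groups did not overlap, and the log2 fold change of 1.53 ± 0.51 (SE) missed the threshold in the main test (adjusted p = 0.0626, edgeR), while it passed with library-size scaling (adjusted p = 0.0460) and with DESeq2 (adjusted p = 0.0149). Phlda2, a maternal gene known for limiting growth of the placenta, ranged from 0.105 to 0.719 CPM and from 0.173 to 0.447 CPM, with overlap, and its log2 fold change of 0.09 ± 0.93 changed sign with the libraries kept. Kcnq1, the potassium channel gene in whose body Kcnq1ot1 starts, was not among the 36 and was looked at after its values were seen. It rose from 3.37 ± 1.85 to 46.1 ± 6.62 CPM (log2 fold change 3.77 ± 0.46, adjusted p = 0.00170, edgeR), while Kcnq1ot1 on the opposite strand fell. Kcnq1 and Kcnq1ot1 share 121 exon bases, and whether reads were assigned by strand is not given in the sources used here.

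The Dlk1-Dio3 cluster on chromosome 12 held 8 of the 36 genes, and 6 of them fell (75%, against 12.8% of all genes tested). All 8 were lower in the library labelled Axin2+ than in the Axin2- library of the same mouse in 3 of 3 mice, as were 5257 of the 16896 genes tested. The median log2 fold change of the 8 was -2.58. Rtl1 and Mir136, counted in these values, passed the filter only through the libraries labelled Axin2- and add no separate support. Paternally expressed coding genes flank a run of maternally expressed noncoding RNAs in this cluster, and the maternal RNAs carry many microRNAs and small nucleolar RNAs. Meg3 (chr12:109541001-109571726, plus strand), the first of those noncoding RNAs, was at 109.9, 45.7 and 193 CPM in the libraries labelled Axin2- and at 16.04, 10.5 and 18.3 CPM in those labelled Axin2+. The lowest Axin2- library held more than the highest Axin2+ library. The log2 fold change was -2.96 ± 0.51 (SE, adjusted p = 0.00678, edgeR), and -2.36 without the Axin2- library of mouse 3 (adjusted p = 0.0181, edgeR). Rian (chr12:109603940-109661716, plus strand), which hosts small nucleolar RNAs, was at 34.0, 17.4 and 36.9 CPM and at 4.52, 3.95 and 8.86 CPM, without overlap (log2 fold change -2.35 ± 0.41, adjusted p = 0.00696, edgeR). In both RNAs the Axin2- library of mouse 2 was the lowest of its fraction. Mirg, the microRNA host at the far end of the run, ranged from 0.245 to 1.21 CPM and from 0.189 to 0.409 CPM, with overlap, and its log2 fold change of -1.56 ± 0.78 did not pass (adjusted p = 0.176, edgeR).

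Of the paternally expressed coding genes of the cluster, Dio3 (chr12:110279068-110281097, plus strand) encodes the deiodinase that inactivates thyroid hormone. It was at 5.60, 4.60 and 6.14 CPM in the libraries labelled Axin2- and at 0.5003, 0.642 and 1.19 CPM in those labelled Axin2+. The log2 fold change was -2.80 ± 0.43 (SE, adjusted p = 0.00390, edgeR), with groups far apart. Begain (chr12:109032187-109068217, minus strand), a gene of synaptic scaffolds, was at 5.42, 5.10 and 6.86 CPM and at 2.36, 1.32 and 2.42 CPM, also without overlap. Its log2 fold change of -1.51 ± 0.35 (SE, adjusted p = 0.0183, edgeR) missed the threshold without the Axin2- library of mouse 3 (-1.35, adjusted p = 0.0624) or the Axin2+ library of mouse 2 (-1.27, adjusted p = 0.0593). Dlk1, a transmembrane ligand related to Notch ligands and known from immature cells, ranged from 0.332 to 7.29 CPM and from 0.0189 to 1.15 CPM. Only the Axin2- library of mouse 3 was above all others, the groups overlapped, and the log2 fold change of -2.33 ± 1.44 did not pass (adjusted p = 0.272, edgeR) and was 0.09 without that library.

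Rtl1 and Mir136 lie on opposite strands of the same stretch. Rtl1 (chr12:109589193-109600330, minus strand) is a paternally expressed gene derived from a retrotransposon, and the maternal transcript across from it carries microRNAs that target its mRNA. Rtl1 had 12, 13 and 19 reads in the libraries labelled Axin2- and 1, 0 and 0 reads in those labelled Axin2+. Scaled for library size, the ratio of Axin2- to Axin2+ was 46.1 (95% interval 7.85 to 1861, exact, for counting error only). The difference passed the test (adjusted p = 0.01996, edgeR), though not with a block on the mouse (adjusted p = 0.0622). It did not pass without the Axin2- library of mouse 1 (0.0565) or mouse 3 (0.0661), nor without the Axin2+ library of mouse 2 (0.0901) or mouse 3 (0.0633). Mir136 (chr12:109595327-109595388, plus strand) is 1 of the microRNA hairpins opposite Rtl1, and its 62 bases all lie within a Rtl1 exon. It had 72, 34 and 72 reads in the libraries labelled Axin2- and none in any library labelled Axin2+. The hairpin thus held more reads than all of Rtl1 in each library labelled Axin2-. Counted against a floor of 3 reads per library, Mir136 was at least 21.2-fold lower (adjusted p = 0.00629, edgeR). Both Rtl1 and Mir136 passed the filter only through the libraries labelled Axin2-. Their adjusted p-values are therefore no separate support for a difference between the fractions. Reads were not made from a small-RNA preparation, so they do not separate the mature microRNA from a longer transcript through the hairpin. Mir3071, a hairpin whose exon covers the same 62 bases on the strand of Rtl1, had no read in any library. The mature forms of this microRNA, as RefSeq gives them (GRCm38.p6, chr12:109595331-109595352 and chr12:109595366-109595387, plus strand), are shown with the seed, bases 2 to 8, in capitals, because the seeds are the part that pairs with targets and they differ between the arms:
miR-136-5p: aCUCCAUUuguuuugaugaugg
miR-136-3p: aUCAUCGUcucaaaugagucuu

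The other microRNA hairpins between Meg3 and Mirg followed in the same direction, as a description with no test, since they were chosen by position after values had been seen. RefSeq places 57 hairpins in that stretch, 52 had a row in the table, and 40 of these, Mir136 among them, had a read in some library. Of the 40, 20 had reads in libraries labelled Axin2- only and 0 in libraries labelled Axin2+ only. Reads over the hairpins summed to 493, 116 and 675 in the libraries labelled Axin2- and to 63, 10 and 67 in those labelled Axin2+. The libraries of mouse 2 were the lowest of both fractions, and the groups did not overlap. Among the 31 hairpins with at least 10 reads, 30 had more in the libraries labelled Axin2-. Matching counts over all low-count genes were not made, so these counts have no background share to be read against.

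**Figure D2:**
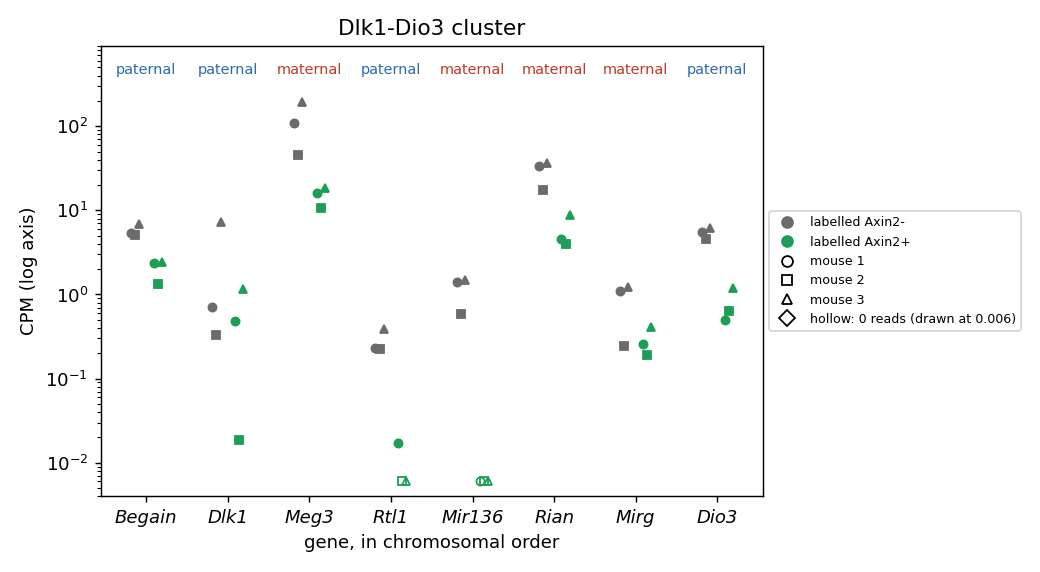
Level in CPM (log axis) of the 8 genes of the Dlk1-Dio3 cluster in chromosomal order, with the expressed parental allele above each gene, grey for libraries labelled Axin2-, green for those labelled Axin2+ and hollow symbols for no read. Paternal and maternal genes both sit lower in green, with no read of Mir136 in any green library and a single high grey point, from mouse 3, for Dlk1 (7.29 CPM).

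Of the 3 genes of the Peg3 cluster on chromosome 7, only Peg3 had many reads. Peg3 (chr7:6703892-6730431, minus strand), a paternally expressed zinc-finger protein, was at 104, 118 and 127 CPM in the libraries labelled Axin2- and at 26.2, 33.3 and 40.3 CPM in those labelled Axin2+. The groups were well apart, and the log2 fold change of -1.81 ± 0.18 (SE, adjusted p = 0.000753, edgeR) was called in every alternative run. Zim1, a maternally expressed zinc-finger gene next to it, ranged from 0 to 1.503 CPM and from 0 to 0.428 CPM, with no read in either library of mouse 2, and did not pass (log2 fold change -1.73 ± 1.66, adjusted p = 0.479, edgeR). Usp29 had 6 reads in 1 Axin2- library and none elsewhere.

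The Peg10-Sgce cluster on chromosome 6 held 4 of the 36 genes. Among them were both that rose (50%, against 14.5% of all genes tested) and 1 that fell (25%, against 12.8%). Sgce (chr6:4674350-4747207, minus strand), which encodes epsilon-sarcoglycan of the dystrophin complex, was at 53.8, 49.65 and 48.3 CPM in the libraries labelled Axin2- and at 22.1, 23.1 and 28.2 CPM in those labelled Axin2+. It fell with little spread, by -1.05 ± 0.14 on the log2 scale (SE, adjusted p = 0.00241, edgeR). Peg10 (chr6:4747306-4760517, plus strand), a retrotransposon-derived gene that starts beside Sgce on the other strand and is likewise expressed from the paternal allele, was at 49.1, 58.8 and 59.5 CPM and at 37.0, 53.5 and 88.4 CPM. Its groups overlapped and it did not pass (log2 fold change 0.10 ± 0.30, adjusted p = 0.840, edgeR), with the sign turned to -0.30 without the Axin2+ library of mouse 3. These neighbours thus did not show the same call, though the difference between them was not tested.

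Asb4 (chr6:5383386-5433022, plus strand), a maternally expressed substrate adaptor of a ubiquitin ligase, was at 0.603, 1.42 and 1.07 CPM in the libraries labelled Axin2- and at 21.4, 22.3 and 37.0 CPM in those labelled Axin2+. Every library labelled Axin2+ was far above every library of the other fraction. The fitted change was 26.0-fold, a log2 fold change of 4.70 ± 0.40 (SE, adjusted p = 0.000462, edgeR). Ppp1r9a (chr6:4902917-5165661, plus strand) encodes neurabin, which binds actin and protein phosphatase 1, and its imprinting is known from extra-embryonic tissue. It was at 65.3, 76.4 and 102 CPM and at 163, 160.03 and 175 CPM, without overlap, a log2 fold change of 1.03 ± 0.17 (SE, adjusted p = 0.00581, edgeR). Both were higher in 3 of 3 mice, as were 5249 of the 16896 genes tested.

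Of 4 genes of the Snrpn cluster, the region of the Prader-Willi and Angelman syndromes, 2 were tested. Of these 1 fell (50%, against 12.8% of all genes tested). Ndn (chr7:62346569-62350262, plus strand), which encodes necdin, a paternally expressed growth suppressor of the MAGE family, was at 45.7, 40.4 and 34.1 CPM in the libraries labelled Axin2- and at 12.96, 15.5 and 22.6 CPM in those labelled Axin2+. The groups did not overlap, but the within-mouse log2 ratios went from -1.81 in mouse 1 to -0.59 in mouse 3. The log2 fold change was -1.23 ± 0.24 (SE, adjusted p = 0.00902, edgeR). Mkrn3, a makorin ring-finger gene, ranged from 0.412 to 0.839 CPM and from 1.06 to 2.62 CPM, higher without overlap, and did not pass (log2 fold change 1.26 ± 0.58, adjusted p = 0.149, edgeR). Magel2 had 20 reads in the Axin2- library of mouse 3 and none in the other libraries. Snrpn was listed at 0 in all 6 libraries, as was Snurf, with which it shares 216 exon bases, so these counts say nothing of the level of that transcript.

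In the Gnas cluster, Gnas (chr2:174284320-174346744, plus strand), the gene of the stimulatory G protein alpha subunit, was at 694, 837 and 780.2 CPM in the libraries labelled Axin2- and at 527, 533 and 544 CPM in those labelled Axin2+. All Axin2+ libraries were lower and lay close together, and the log2 fold change was -0.53 ± 0.14 (SE, adjusted p = 0.0278, edgeR). The call was lost with a block on the mouse (adjusted p = 0.0523) and with library-size scaling (log2 fold change -0.36, adjusted p = 0.111). It was also lost without the Axin2- library of mouse 3 (adjusted p = 0.0656) or the Axin2+ library of mouse 1 (0.0658), mouse 2 (0.114) or mouse 3 (0.0721). Nespas, the paternal antisense RNA of the locus, shares 988 exon bases with Gnas, ranged from 0.227 to 2.16 CPM and from 0.0345 to 0.931 CPM, and did not pass (log2 fold change -1.19 ± 1.24, adjusted p = 0.513, edgeR). Its sign turned to 0.40 without the Axin2- library of mouse 3.

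Of the 7 genes that stand alone or with few imprinted neighbours, Grb10 among them, 4 fell (57.1%, against 12.8% of all genes tested). Each of the 4 is paternally expressed. Mest (chr6:30723547-30748465, plus strand), a hydrolase-like gene of mesoderm, was at 22.7, 11.2 and 23.1 CPM in the libraries labelled Axin2- and at 2.90, 2.61 and 6.59 CPM in those labelled Axin2+. The groups did not overlap, with a log2 fold change of -2.23 ± 0.46 (SE, adjusted p = 0.0120, edgeR). Mest shares 912 exon bases with Copg2 on the other strand. Plagl1 (chr10:13060504-13131694, plus strand), a zinc-finger transcription factor that slows growth, was at 66.4, 82.7 and 78.9 CPM and at 25.2, 33.7 and 37.7 CPM. It was lower without overlap, by -1.24 ± 0.18 on the log2 scale (SE, adjusted p = 0.00304, edgeR).

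Nap1l5 (chr6:58905233-58907076, minus strand), a gene related to nucleosome assembly proteins, was at 15.0, 15.8 and 14.6 CPM and at 2.45, 4.91 and 7.39 CPM. The Axin2- libraries lay close together, while the Axin2+ libraries spread widely (SD 0.596 and 2.47 CPM). Its log2 fold change of -1.62 ± 0.38 (SE, adjusted p = 0.0196, edgeR) did not pass without any 1 of the Axin2- libraries of mice 1, 2 and 3 (adjusted p = 0.0557, 0.0502 and 0.0570) or without the Axin2+ library of mouse 2 (0.0692). Impact, a regulator of the translation kinase GCN2, was at 55.4, 51.4 and 50.1 CPM and at 32.3, 26.8 and 31.7 CPM, a log2 fold change of -0.79 ± 0.13 (SE, adjusted p = 0.00492, edgeR). It had the smallest standard error of the genes that fell and no overlap.

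Nnat (neuronatin) and Zdbf2, both paternally expressed, did not pass. Nnat ranged from 1.57 to 2.92 CPM in the libraries labelled Axin2- and from 0.642 to 1.24 CPM in those labelled Axin2+, lower without overlap, with a log2 fold change of -1.23 ± 0.47 (adjusted p = 0.0905, edgeR) that passed with DESeq2 (adjusted p = 0.0379). Zdbf2 was at 2.39, 1.82 and 10.7 CPM and at 11.04, 2.87 and 7.65 CPM. Each fraction held low and high libraries, and the log2 fold change was 0.54 ± 0.77 (adjusted p = 0.642, edgeR) and turned to -0.21 without both libraries of mouse 1.

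**Figure D3:**
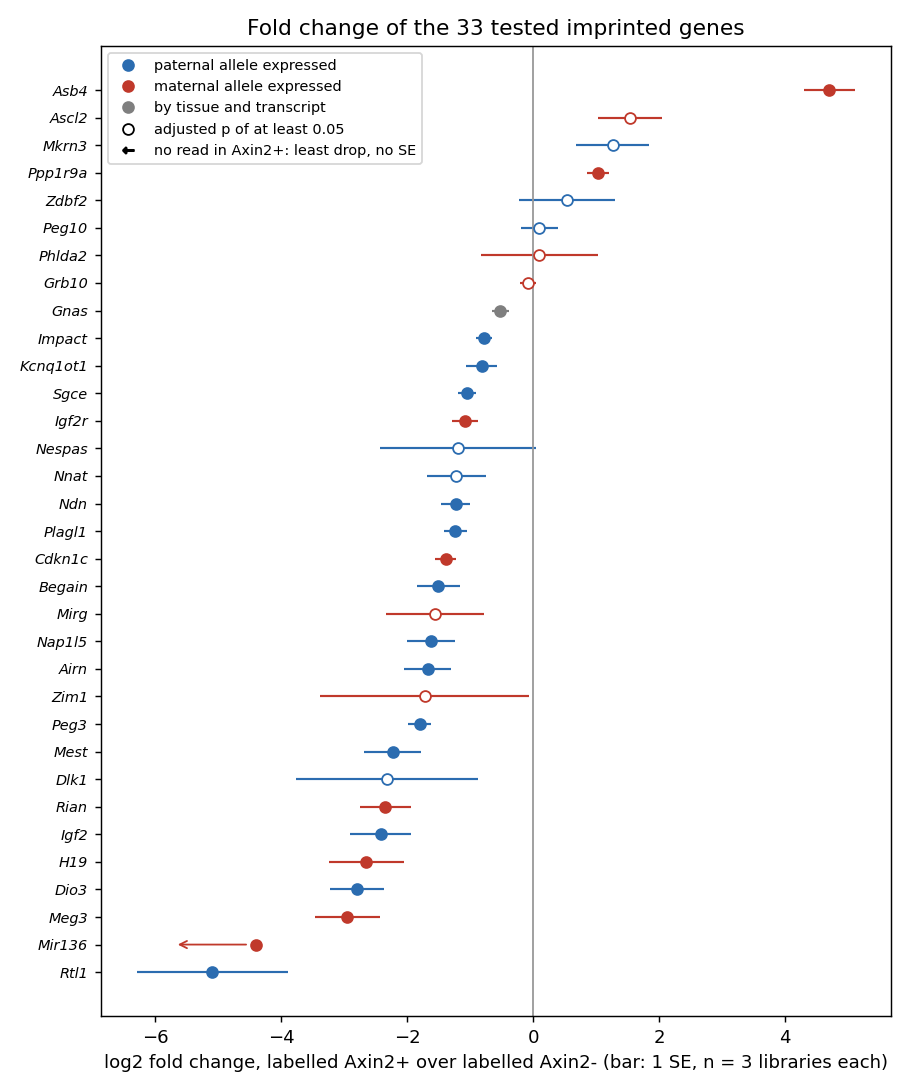
Log2 fold change of the 33 tested imprinted genes, libraries labelled Axin2+ over those labelled Axin2- (n = 3 each), with bars of 1 SE, colours for the expressed parental allele, hollow points for genes that did not pass, and Mir136, with no read in the Axin2+ libraries, drawn at its least drop with an arrow. Filled points lie mostly left of 0 in both colours, and the filled points right of 0 are Asb4 (4.70) and Ppp1r9a (1.03), both maternal.

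By parental allele, 13 of the 19 tested paternally expressed genes fell (68.4%) and 0 rose, with a median log2 fold change of -1.24. None of the 19 was higher at an unadjusted p under 0.05 in edgeR or at an adjusted p under 0.05 in DESeq2. Of the 13 maternally expressed genes 6 fell (46.2%) and 2 rose (15.4%), with a median of -1.39. Of all genes tested, 12.8% fell and 14.5% rose. The difference between these classes was not tested, and neighbours of a cluster are not independent of each other. By kind of transcript, 6 of 8 noncoding RNAs fell (75%, median log2 fold change -2.01). So did 14 of the 25 tested protein-coding genes (56%, median -1.23). Of the noncoding RNAs, Meg3, Mir136, Rian and Mirg are neighbours in the Dlk1-Dio3 cluster. Rtl1 and Mir136, counted in these classes, passed the filter only through the libraries labelled Axin2-. The 2 noncoding RNAs that did not pass were Mirg and Nespas.

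The Axin2- library of mouse 3 stood apart for a group of these genes. In 6 of the 33 tested genes (18.2%) it was at least 2 times above each other Axin2- library, against 3.79% of all genes tested. These were Igf2 (3.14 times the next highest), H19 (3.35 times), Dlk1 (10.1 times), Zim1 (2.42 times), Nespas (5.56 times) and Zdbf2 (4.47 times). Dlk1, Zim1 and Nespas were below 1 CPM in both other Axin2- libraries. The same count was not made for the other libraries, and the share over all genes was not matched for level. Reads of Magel2, too few to test, were found in the Axin2- library of mouse 3 only. Without that library 14 imprinted genes fell, and over all genes 1308 in place of 2171. Such a drop was not particular to it. Without the Axin2+ library of mouse 2 the numbers were 14 and 1053, and without the Axin2- library of mouse 1 they were 16 and 1272. In the Axin2- libraries of mice 1, 2 and 3 the summed stromal markers were at 24404, 11292 and 19641 CPM, the smooth muscle and pericyte markers at 7296, 2892 and 5909 CPM, and the immune markers at 282, 69.4 and 378 CPM. Their part in this pattern was not tested.

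The promoters of these genes were looked at for TGCCGC, the core of the site bound by the zinc-finger protein ZFP57, which is known to keep methylation at imprinting control regions. RefSeq promoter windows (GRCm38.p6, 250 bases before to 50 after a gene's start) were on hand for 28 of the 36 genes. The 6 letters, read on both strands and with no other motif searched, were in a window of 10 of the 28 (35.7%), against 13.1% of 27025 genes with windows of the same length. A gene can have several windows, and per window the letters were in 11 of 48 (22.9%) for the imprinted genes and in 11.6% of all 32851. The median number of CpG dinucleotides per window was 15.5 for the imprinted genes and 7 for all windows. Genes with the letters included ones that fell (Igf2, Meg3, Mest, Nap1l5 and Plagl1), ones that did not pass (Grb10, Nnat, Zdbf2 and Zim1) and Snrpn, which had no read. The 250 bases before the start are shown for 4 of the genes that fell, since these hold the letters upstream of the start. Each is written 5′ to 3′ in the direction of transcription, with the motif in capitals as TGCCGC or, on the other strand, GCGGCA. They come from chr6:30737800-30738049 (plus), chr6:58907127-58907376 (minus), chr10:13090582-13090831 (plus) and chr12:109540746-109540995 (plus):
Mest: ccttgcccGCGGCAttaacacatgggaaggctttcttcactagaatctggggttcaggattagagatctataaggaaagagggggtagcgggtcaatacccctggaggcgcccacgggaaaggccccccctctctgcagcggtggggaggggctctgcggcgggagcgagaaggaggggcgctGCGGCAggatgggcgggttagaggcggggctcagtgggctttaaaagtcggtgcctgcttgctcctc
Nap1l5: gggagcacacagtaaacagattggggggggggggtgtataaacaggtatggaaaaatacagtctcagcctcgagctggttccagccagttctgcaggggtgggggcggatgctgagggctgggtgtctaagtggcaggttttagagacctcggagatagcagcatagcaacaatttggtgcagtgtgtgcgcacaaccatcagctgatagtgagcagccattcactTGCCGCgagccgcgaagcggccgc
Plagl1: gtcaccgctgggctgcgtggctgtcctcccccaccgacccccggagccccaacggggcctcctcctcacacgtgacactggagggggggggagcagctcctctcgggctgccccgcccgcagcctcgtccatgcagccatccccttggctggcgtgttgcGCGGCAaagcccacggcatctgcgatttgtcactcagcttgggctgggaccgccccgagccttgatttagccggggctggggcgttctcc
Meg3: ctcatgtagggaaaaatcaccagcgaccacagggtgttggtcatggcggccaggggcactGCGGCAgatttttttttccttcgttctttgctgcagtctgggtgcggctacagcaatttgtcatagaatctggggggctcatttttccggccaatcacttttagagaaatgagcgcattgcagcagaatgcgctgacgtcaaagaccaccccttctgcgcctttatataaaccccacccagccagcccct
A match of letters is a description of the window and not evidence of binding. Zfp57 itself was at 5.54 ± 0.955 and 5.72 ± 0.831 CPM (SD, n = 3 each) and did not pass the test (log2 fold change 0.05, adjusted p = 0.914, edgeR).

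Genes that set, keep or erase imprints were read from the same fit. Of a list of 27 such regulators 23 were tested, 3 rose (13%, against 14.5% of all genes tested) and 0 fell (against 12.8%), with a median log2 fold change of 0.04. At an unadjusted p under 0.05 in edgeR 4 were higher and 2 lower, and with DESeq2 3 rose and 0 fell. Uhrf1, which brings the maintenance methyltransferase to replicated DNA, rose from 8.64 ± 3.28 to 28.2 ± 2.27 CPM (log2 fold change 1.71 ± 0.28, adjusted p = 0.00514, edgeR). Hells, a remodeller needed for DNA methylation, rose from 9.39 ± 2.90 to 22.7 ± 2.65 CPM (1.27 ± 0.26, adjusted p = 0.0115, edgeR). Ehmt2, a histone H3K9 methyltransferase, rose from 168 ± 4.18 to 227 ± 7.72 CPM (0.44 ± 0.10, adjusted p = 0.0202, edgeR). The Ehmt2 call was lost without the Axin2- library of mouse 1 (adjusted p = 0.0512) or the Axin2+ library of mouse 1 (0.0518) or mouse 2 (0.0858). It was also lost without both libraries of mouse 1, mouse 2 or mouse 3. The Uhrf1 and Hells calls were lost without both libraries of mouse 3 (adjusted p = 0.0598 and 0.0831, edgeR). Dnmt1, the maintenance methyltransferase, was at 104 ± 13.7 and 123 ± 9.57 CPM and did not pass (log2 fold change 0.24, adjusted p = 0.221, edgeR), and neither did Ctcf (-0.02, adjusted p = 0.924).

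Other imprinted genes, outside the 36, went both ways. Of 47 such genes with a row of counts, 38 were tested, 10 rose and 10 fell (26.3% each way, against 14.5% and 12.8% of all genes tested), with a median log2 fold change of -0.18, and whether this list differs from the 36 was not tested. One of the 10 that fell, Dcn, is also a marker of stroma. Cobl, an actin nucleator next to Grb10, rose from 13.6 ± 3.19 to 156 ± 30.1 CPM (log2 fold change 3.52 ± 0.24, adjusted p = 0.000259, edgeR). Pon2, a paraoxonase gene between Ppp1r9a and Asb4, rose from 16.8 ± 0.672 to 50.1 ± 7.08 CPM (1.58 ± 0.15, adjusted p = 0.000632, edgeR). Slc22a3, an organic cation transporter near Igf2r, fell from 14.7 ± 8.65 to 0.591 ± 0.0943 CPM (-4.63 ± 0.52, adjusted p = 0.00117, edgeR). Zrsr1, a splicing factor gene, fell from 121 ± 2.88 to 81.0 ± 3.90 CPM (-0.58 ± 0.10, adjusted p = 0.00576, edgeR). The 10 lower calls became 6 with library-size scaling, 6 without the Axin2- library of mouse 1 and 5 without the Axin2+ library of mouse 2, and the 10 higher calls became 6 without that last library.

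**Figure D4:**
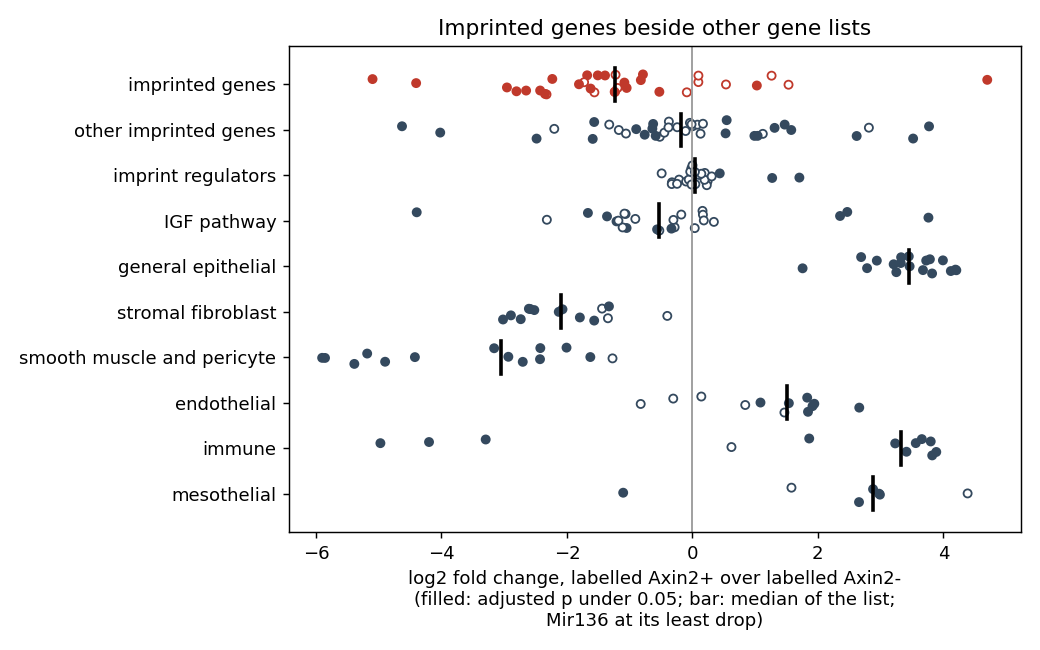
Log2 fold change of each tested gene of the imprinted list and of 9 other lists, libraries labelled Axin2+ over those labelled Axin2-, with filled points for adjusted p under 0.05 and a black bar at each list's median. The median of the imprinted genes (-1.24) lies between those of the stromal (-2.10) and smooth muscle (-3.05) markers and that of the epithelial markers (3.46). The medians of the other lists shown lie in that range too, so this placement is not particular to the imprinted genes. Single imprinted genes spread more widely, from Rtl1 at -5.10 to Asb4 at 4.70. The median of the imprint regulators lies near 0 (0.04).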

How the data were processed

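RNA-seq libraries of 2 sorted fractions from 3 mice, 6 in all, were analysed. The values are read counts for each gene, in whole numbers, as the authors deposited them, and sum to between 49714402 and 59597315 per library, which limits precision for the rarest transcripts only. Per the submitters' processing notes, the build was mm10 and the tools were STAR 2.5.3a, edgeR 3.22.5, bcl2fastq 2.20.0.422, StringTie 1.3.3 and featureCounts 1.5.3 (Subread). The annotation version, strand setting and handling of multimapping reads were not given in the sources used here. Of the 36 imprinted genes 12 share exon bases with another gene of the table, 7 of them with one on the opposite strand, so their reads may be split or mixed. The library protocol named in the labels is Ribo-Zero Gold depletion.

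The count table was fitted with edgeR 4.0.16 under R 4.3.3 (filterByExpr, TMM, robust quasi-likelihood F test between the fractions), with p-values adjusted by Benjamini-Hochberg over 16896 genes and a threshold of 0.05. An SE is the size of the log2 fold change divided by the square root of F. Alternatives were other scalings, DESeq2 1.42.0, other filters, the mouse as a block, and leaving out each library or mouse. Coordinates come from GENCODE M21 (GRCm38), and microRNA and promoter sequences from RefSeq (GRCm38.p6). Of 181 listed symbols 178 were found in the table, 1 under an older symbol.

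The members and lists were chosen with earlier results of these data known. By rule, values per library were given for each imprinted gene that passed the test or reached a mean of 5 CPM in a fraction, and from other lists up to 4 genes per direction with the smallest p were named. The labels number libraries by mouse, which pairs the fractions, and also say that cells were pooled. If libraries came from a pool, p-values measure only the spread between libraries. Deviations from the fraction means correlated at 0.27, 0.01 and -0.07 between the libraries of mice 1, 2 and 3, and at up to 0.25 between different mice. No libraries were duplicates: replicates differed by a chi-square of at least 59.7 for each degree of freedom.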

Additional observations from a re-analysis of the deposited data

How the results depend on the processing

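With 3 mice, calls near the threshold depended on single libraries. Leaving out libraries or mice gave 693 to 1911 lower and 1018 to 2304 higher genes over the whole table (2171 and 2447 with all), 10 to 19 lower and 1 to 2 higher imprinted genes, 2 to 8 lower and 5 to 9 higher among the other imprinted genes, 0 to 3 higher among the imprint regulators, and 2 to 7 lower among the IGF pathway genes. With library-size scaling 6 other imprinted genes and 3 IGF pathway genes fell and 5 imprint regulators rose. DESeq2 called 2981 lower and 3113 higher genes. With the mouse as a replicate block 17 imprinted genes fell and 2 rose, and among the 36 the block ended the calls of Kcnq1ot1, Rtl1 and Gnas only. Signs changed only for genes that did not pass: on leaving out libraries or mice, log2 fold changes ranged from -0.48 to 1.80 for Phlda2, -3.44 to 0.087 for Dlk1, -0.30 to 0.35 for Peg10, -2.71 to 0.40 for Nespas, -0.18 to 0.079 for Grb10 and -0.21 to 1.79 for Zdbf2, and Grb10 was at 0.079 with library-size scaling. The cause of these changes was not tested, beyond the smaller number of samples. Depth limits Rtl1, Usp29, Magel2, Zim1, Phlda2 and Mir136, whose values rest on few reads.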
